A study of Mus musculus with 4 samples.

Results

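The 10 genes described here encode 3 ligands (Dll1, Dll4 and Jag1), 4 receptors (Notch1, Notch2, Notch3 and Notch4) and 3 target genes (Hey1, Heyl and Hes1) of the Notch pathway. They were chosen by name, by gene symbol or by gene identifier, out of 27040 genes listed in all the files, and all 10 were found in every library. Cells from the Achilles tendon of mice were profiled by droplet single-cell RNA sequencing in 4 groups, each a single library made from 5 pooled tendons. Prox1 eGFP mice gave an untreated group (day 0) and groups at days 7 and 21 after an injury that the labels abbreviate B/T and do not expand. The remaining group came from Vegfc CRE mice at day 7 after the same injury. eGFP is a fluorescent reporter and CRE a recombinase. What drives the CRE, and the age of the animals, are not given in the sources used here. The labels describe a flow cytometry sort for cells expressing Prox1 and elsewhere call the cells unsorted, so a sort may have set the cell types found in a library. Genotype and day both differ between Vegfc CRE day 7 and Prox1 eGFP day 21 and cannot be told apart.

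Notch signalling passes between touching cells. A ligand of the Delta-like or Jagged family on the surface of a cell binds a Notch receptor on its neighbour, the receptor is cut, and its intracellular part moves to the nucleus, where it joins RBPJ and switches on genes of the Hes and Hey families. In skeletal muscle the pathway is known for holding satellite cells, the Pax7-expressing stem cells of muscle, in quiescence. In blood vessels Dll4, Notch1, Notch4 and Hey1 are known for arterial identity and for control of sprouting, and Notch3 for the differentiation of mural cells, the smooth muscle cells and pericytes around vessels.

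On the mm10 build the ligand genes lie at chr17:15367354-15376872 (Dll1, minus strand), chr2:119325784-119335962 (Dll4, plus strand) and chr2:137081456-137116644 (Jag1, minus strand). The receptor genes lie at chr2:26457903-26516663 (Notch1, minus), chr3:98013527-98150361 (Notch2, plus), chr17:32120820-32166852 (Notch3, minus) and chr17:34564268-34588503 (Notch4, plus). The target genes lie at chr3:8663359-8667256 (Hey1, minus), chr4:123233556-123249875 (Heyl, plus) and chr16:30064384-30067796 (Hes1, plus). All are protein-coding. Dll1, Dll4, Notch1 and Notch3 overlap genes on the opposite strand. The matrix of Prox1 eGFP day 7 lists 27998 genes and the other 3 list 32285, so its annotation may differ. The overlapping genes of Dll1, Dll4 and Notch1 are in only some of these lists. Differences between Prox1 eGFP day 7 and the other libraries cannot be told apart from a difference in annotation.

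Promoter windows from RefSeq (build GRCm38.p6, 250 bases before to 50 after a start) were found for 7 of the 10 genes, in 8 windows. Hes1, Hey1 and Heyl had no entry. A pair of windows is shown for genes with uneven levels below. Dll1 was higher in Myog-high than in other myogenic cells and was also found in endothelial cells, and Notch4 was higher in blood capillary and arterial cells than in lymphatic cells. The 250 bases before the start are printed, and capitals mark the letters of an E-box core (CAGCTG) in Dll1 and of an ETS core (AGGAAG or CTTCCT) in Notch4.
Dll1, chr17:15376933-15377182, minus strand: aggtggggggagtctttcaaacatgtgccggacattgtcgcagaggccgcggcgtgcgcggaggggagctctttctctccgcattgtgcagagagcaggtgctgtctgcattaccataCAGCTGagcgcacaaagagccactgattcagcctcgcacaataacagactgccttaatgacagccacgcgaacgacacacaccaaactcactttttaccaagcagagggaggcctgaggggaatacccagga
Notch4, chr17:34564045-34564294, plus strand: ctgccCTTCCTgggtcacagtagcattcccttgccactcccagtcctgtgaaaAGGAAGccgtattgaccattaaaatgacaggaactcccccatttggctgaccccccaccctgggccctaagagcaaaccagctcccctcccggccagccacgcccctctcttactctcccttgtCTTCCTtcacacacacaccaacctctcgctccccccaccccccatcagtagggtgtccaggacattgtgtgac
The E-box core, which reads the same on both strands, was present in 2 of the 8 windows (Dll1 and Jag1) and in 16.3% of 32851 windows of the same length. The ETS core, searched on both strands, was present in 2 of the 8 (Dll1 and Notch4) and in 35.4% of all windows. Dll1 had 2 windows, and its ETS core lay in the window that is not printed. The Notch4 window held it 4 times, 3 of them before the start, and 0.432% of all windows held as many. An RBPJ core (TGGGAA or TTCCCA) was found in 0 of the 8 windows and in 25.6% of all windows. The motifs were chosen after expression values were seen, and a match is only a description of letters.

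After filtering, 18843 cells were analysed. Prox1 eGFP gave 690 cells at day 0, 4871 at day 7 and 6303 at day 21, and Vegfc CRE gave 6979, with a median per cell of 7064, 8471, 7513 and 8507 UMIs (unique molecular identifiers, 1 per captured transcript). Libraries shared 1 to 10 cell barcodes with each other, at most 0.435% of the smaller library. Cells were clustered without the Notch genes and named from markers, so the names are rebuilt here and are not the authors'. Clusters that mixed markers of several lineages held 243 cells (1.29%) and were left out of the levels below. Satellite-like cells numbered 3481, 3343 and 32 in Prox1 eGFP day 7, day 21 and Vegfc CRE, and carried Pax7 at 685, 380 and 258 CPM. A cluster led by Myog and Mymk, genes of differentiating and fusing myoblasts, is called Pax7-low myogenic (182, 100 and 2 cells). The name is relative. Its day 7 cells still carried Pax7, less than the satellite-like cells of day 7 but more than those of Vegfc CRE. Its Myog was 1613 and 5124 CPM at days 7 and 21, where satellite-like cells had 1.32 and 1.73. Lymphatic endothelial-like cells outside the dividing subcluster numbered 744 and 1798 at days 7 and 21 and 8 in Vegfc CRE, and blood endothelial-like cells 32, 106 and 611. Mural-like cells numbered 47 and 223 and fibroblast-like cells 295 and 718 in Prox1 eGFP day 21 and Vegfc CRE. Day 0 held mostly immune cells (407 T/NK-like, 115 B or plasma-like and 55 dendritic-like) with under 30 cells of every vessel, muscle and stromal class, so it enters no comparison.

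Prox1, the gene behind the reporter, was 1259, 776 and 137 CPM in satellite-like cells of Prox1 eGFP day 7, day 21 and Vegfc CRE, and lymphatic endothelial-like cells had 2291 CPM at day 7 and 1701 at day 21. Vegfc, which encodes a lymphatic growth factor, was 8.42 and 3.80 CPM in fibroblast-like cells of Prox1 eGFP day 21 and Vegfc CRE.

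Levels below are UMIs of a gene scaled to a common total of UMIs over the summed cells of a class (CPM, counts per 1000000), followed by exact 95% Poisson intervals. As every group is a single library, the spread between animals is unknown, intervals cover counting error only and no p-value is given. Ratios carry exact conditional binomial intervals. Genes are called apart by size alone, at least 2-fold, among those with at least 10 UMIs over both sums, and the share of all genes that far apart is given as the background. A level is compared between classes or libraries for the same gene only.

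Dll1, a Delta-like ligand, was highest among myogenic cells in the Pax7-low, Myog-high cluster. It measured 43.2 CPM (36.9 to 50.2) there at day 7 and 66.8 CPM (54.5 to 81.1) at day 21, where satellite-like cells had 10.5 (9.31 to 11.8) and 8.24 (7.12 to 9.5). The intervals of the 2 clusters did not overlap in either library. The ratio was 4.12-fold at day 7 (3.39 to 5.0) and 8.10-fold at day 21 (6.31 to 10.4). A Dll1 UMI was seen in 35.7% and 60.0% of Pax7-low cells and in 6.81% and 4.73% of satellite-like cells, and in 7.34% and 12.7% against 1.94% and 1.38% once every cell was thinned to 2000 UMIs. Endothelial cells carried the ligand too. In lymphatic endothelial-like cells Dll1 was 32.7 CPM at day 7 and 26.9 at day 21, and in venous-like cells of Vegfc CRE, which express the chemokine receptor Ackr1, it was 53.6 CPM (42.9 to 66.1), above 28.0 in blood capillary-like cells of the same library. Mural-like cells had 0 and 1.77 CPM and fibroblast-like cells 1.31 and 0.317 CPM in Prox1 eGFP day 21 and Vegfc CRE.

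Dll4, the Delta-like ligand of arterial and sprouting endothelium, had most of its UMIs in endothelial cells in each of the 3 injured libraries. Lymphatic endothelial-like cells measured 40.1 CPM at day 7 and 27.4 at day 21, while satellite-like cells held 0.107 CPM (3 UMIs over 3481 cells) and 0.0863 CPM (2 UMIs over 3343 cells). The level in satellite-like cells was 374-fold lower at day 7 (127 to 1820) and 318-fold lower at day 21. A Dll4 UMI was seen in 39.1% and 20.7% of lymphatic cells and in 0.0575% and 0.0598% of satellite-like cells. Among the named blood vessel classes of Vegfc CRE, arterial-like cells carried Gja5 at 284 CPM. They had 148 CPM of Dll4 (117 to 184), capillary-like cells 56.0 and venous-like cells 11.7 (7.04 to 18.3). These 3 intervals did not overlap. Unnamed subclusters, with 257 of the 611 blood endothelial-like cells of Vegfc CRE, are outside this order. B or plasma-like cells of that library had 23.1 CPM (9.27 to 47.5), which overlapped the capillary-like and venous-like cells. Of all Dll4 UMIs, 91.5% at day 7 and 87.1% at day 21 lay in lymphatic endothelial-like cells, which held 35.6% and 30.8% of all UMIs (19.2% and 29.6% of the cells).

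Jag1, the Jagged ligand, was spread over more lineages than the Delta-like ligands. Its highest level at day 21 was in mural-like cells, at 207 CPM (169 to 251), and in Vegfc CRE in arterial-like cells, at 325 CPM (278 to 376), followed by mural-like cells at 99.4 CPM (89.1 to 111). Blood capillary-like cells of Vegfc CRE had 13.5 CPM, 24.1-fold below the arterial-like cells (13.7 to 46.1), and a Jag1 UMI was seen in 7.91% of the former and 74.4% of the latter. At day 7, where mural cells were not found, Jag1 was 81.6 CPM in a lymphatic class marked by Clca3a1, 62.5 CPM (59.6 to 65.5) in satellite-like cells and 44.0 CPM in capillary lymphatic-like cells. Fibroblast-like cells had 32.9 and 26.4 CPM in Prox1 eGFP day 21 and Vegfc CRE.

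**Figure D1:**
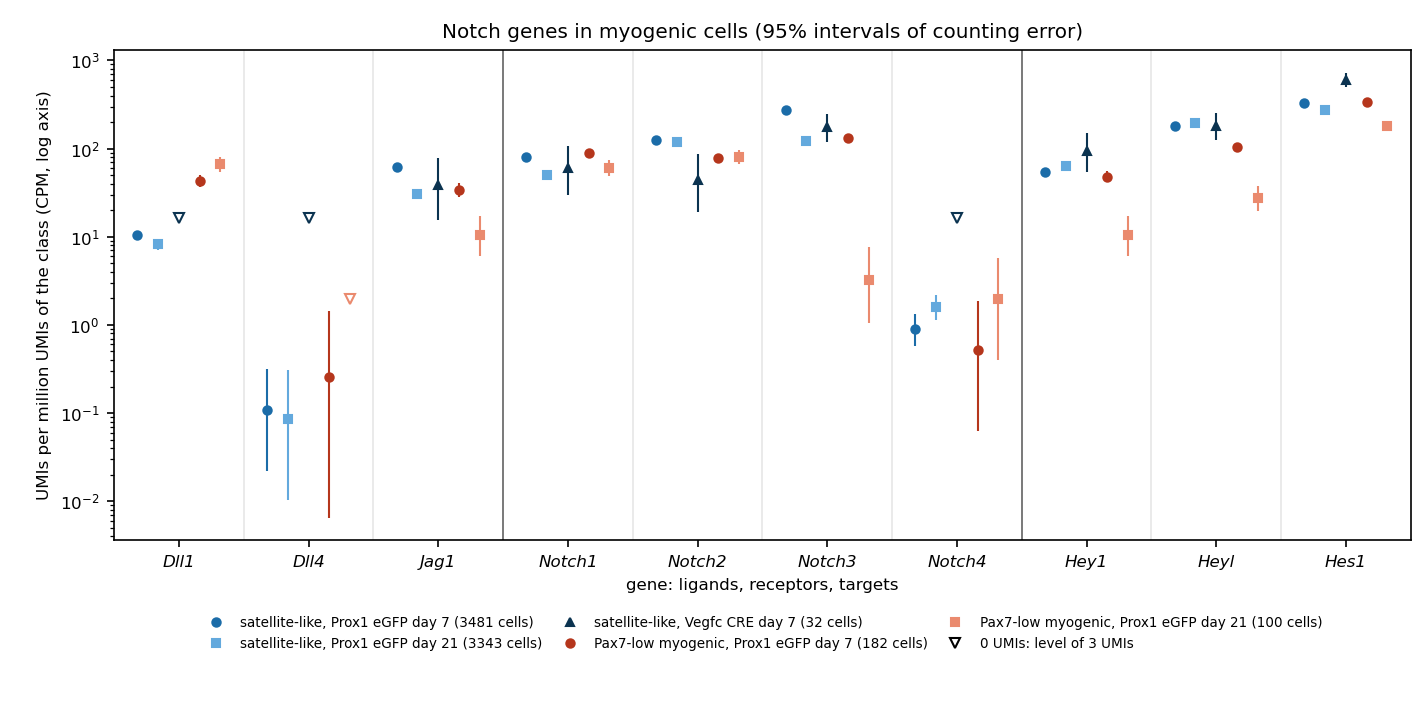
Level of each of the 10 genes in myogenic classes by library (CPM, log axis, points with 95% intervals of counting error, open triangles at the level of 3 UMIs where none was counted). Dll1 is higher in Pax7-low cells than in satellite-like cells in both Prox1 eGFP libraries, and Notch3 in Pax7-low cells is 131 CPM at day 7 and 3.27 CPM at day 21.

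Notch1 was detected in every vessel, muscle and stromal class, with endothelium highest. Lymphatic endothelial-like cells had 144 CPM at day 7 and 140 at day 21, and in Vegfc CRE the arterial-like, capillary-like and venous-like blood cells had 149 (119 to 186), 148 and 126 CPM, with overlapping intervals. Satellite-like cells had 79.5 CPM (76.2 to 82.9) at day 7, 50.8 (48.0 to 53.8) at day 21 and 60.3 (30.1 to 108) in Vegfc CRE. Fibroblast-like cells were lowest of these at day 21, at 9.35 CPM, overlapping tenocyte-like cells at 10.8 CPM, and had 4.83 CPM in Vegfc CRE.

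Notch2 was higher in satellite-like than in endothelial cells. Satellite-like cells measured 126 CPM (122 to 130) at day 7 and 118 (114 to 122) at day 21, and lymphatic endothelial-like cells 40.5 and 46.8 CPM. Blood capillary-like cells had 1 UMI at day 21 and 0 of 139 cells with a UMI in Vegfc CRE, which allows a share of up to 2.16%. Arterial-like cells had 0 of 39, which allows up to 7.69%. In Vegfc CRE the highest level was in neutrophil-like cells, at 147 CPM, and at day 21 macrophage-like cells, at 123 CPM, overlapped satellite-like cells. Fibroblast-like cells had 52.0 and 29.8 CPM of Notch2 in Prox1 eGFP day 21 and Vegfc CRE.

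Notch3 marked mural and myogenic cells and was almost missing from endothelium. Mural-like cells had 394 CPM (341 to 453) at day 21 and 472 (449 to 495) in Vegfc CRE, with a UMI in 93.6% and 97.8% of them. Satellite-like cells had 276 CPM (270 to 282), 122 (118 to 127) and 175 (120 to 248) in Prox1 eGFP day 7, day 21 and Vegfc CRE. Lymphatic endothelial-like cells had 12 UMIs at day 7 (0.932 CPM) and 2 at day 21 (0.122 CPM), 296-fold below satellite-like cells at day 7 (170 to 574). Against fibroblast-like cells, the mural level was 55.5-fold higher at day 21 (39.0 to 80.7) and 94.5-fold higher in Vegfc CRE (73.5 to 124).

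Notch4 was higher in blood than in lymphatic endothelium. It measured 151 CPM (120 to 188) in arterial-like cells and 70.6 CPM in capillary-like cells of Vegfc CRE and 70.4 CPM in capillary-like cells of day 21. Venous-like cells of Vegfc CRE had 16.6 CPM (11 to 24.2), 4.24-fold below the capillary-like cells (2.68 to 6.90). All blood endothelial-like cells together had 13.3 and 32.0 CPM at days 7 and 21, where lymphatic cells had 1.24 and 1.95. The difference was 10.7-fold and 16.4-fold (9.68 to 27.8 at day 21). The day 7 value rests on few UMIs, 7.62% of the 105 of Notch4 in that library. Prox1-high blood cells of day 21 had 3.5 CPM. Satellite-like cells had 0.894 and 1.60 CPM, fibroblast-like cells 0.561 CPM at day 21, and mural-like cells 0 and 3.54 CPM in Prox1 eGFP day 21 and Vegfc CRE.

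**Figure D2:**
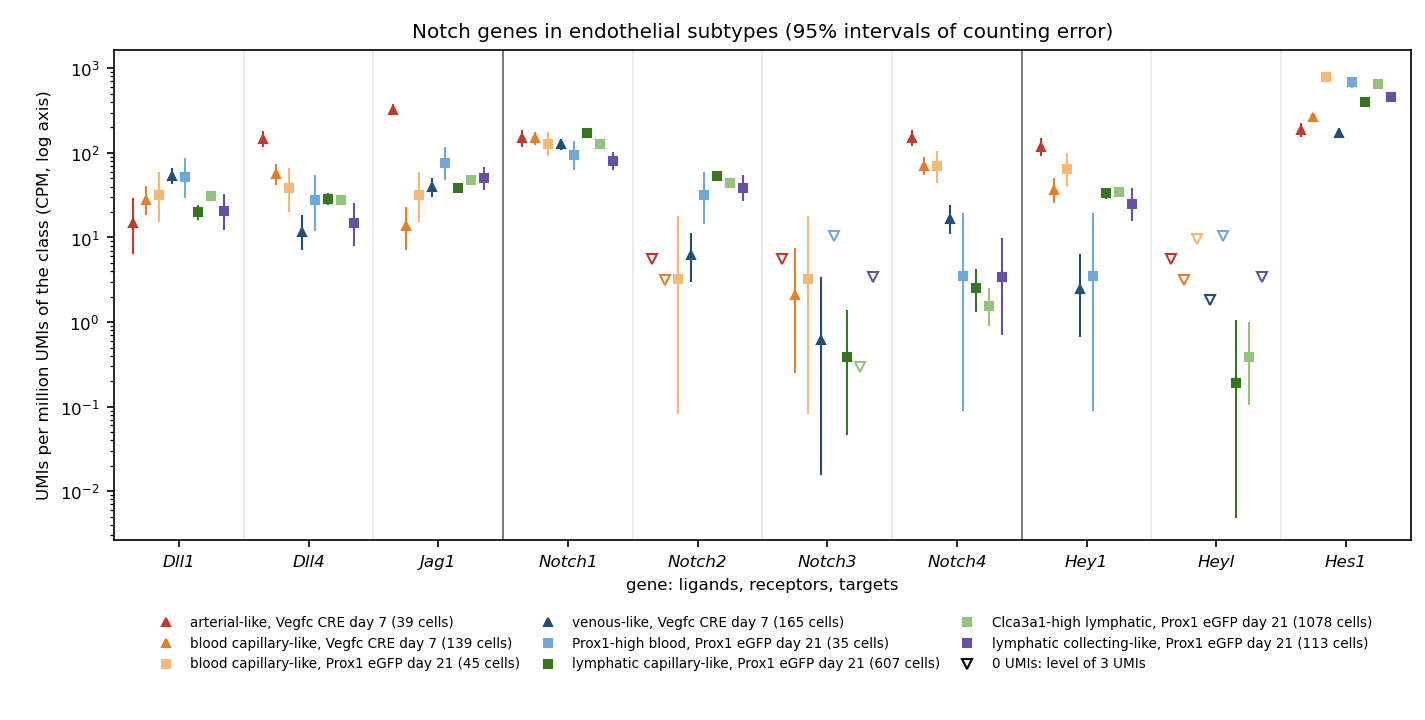
Level of each gene in endothelial subtypes of Prox1 eGFP day 21 and Vegfc CRE (CPM, log axis, 95% intervals of counting error, open triangles at the level of 3 UMIs where none was counted). Arterial-like cells have the highest Dll4, Jag1, Notch4 and Hey1, and Notch2, Notch3 and Heyl sit at or near 0 UMIs in blood capillary-like and arterial-like cells.

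Among the targets, Heyl was found, like Notch3, in myogenic and mural cells and hardly in endothelium. Satellite-like cells had 182 CPM of Heyl (177 to 188) at day 7, 193 (187 to 198) at day 21 and 181 (124 to 254) in Vegfc CRE. Mural-like cells had 56.3 CPM (37.4 to 81.4) and 97.9 CPM (87.7 to 109) in Prox1 eGFP day 21 and Vegfc CRE. Lymphatic endothelial-like cells had 0.543 and 0.305 CPM at days 7 and 21, and in 611 blood endothelial-like cells of Vegfc CRE no Heyl UMI was counted, which allows a share of cells with a UMI of up to 0.491%. A Heyl UMI was seen in 65.0% and 62.7% of satellite-like cells at days 7 and 21.

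Hey1 was present in both endothelial and myogenic cells. Arterial-like cells had 118 CPM (90.9 to 151) and blood capillary-like cells 36.3 CPM in Vegfc CRE, whereas venous-like cells had 2.46 CPM from 4 UMIs, 14.8-fold below the capillary-like cells (5.27 to 57.1). Satellite-like cells had 54.6 CPM (51.9 to 57.5), 63 (59.8 to 66.3) and 93.2 (54.3 to 149) in Prox1 eGFP day 7, day 21 and Vegfc CRE. Lymphatic capillary-like cells had 76.0 CPM at day 7 and 33.2 at day 21, and fibroblast-like cells 7.29 CPM at day 21 and 1.19 in Vegfc CRE.

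Hes1, a repressor that many signals besides Notch can induce, was found in every class. At day 7 it was 683 CPM in lymphatic endothelial-like and 325 CPM (318 to 332) in satellite-like cells. At day 21 it was 783 CPM in blood capillary-like, 555 in lymphatic endothelial-like, 434 in mural-like, 273 (267 to 280) in satellite-like and 255 in fibroblast-like cells. In Vegfc CRE Schwann-like cells (701 CPM) and satellite-like cells (603 CPM, 495 to 727) were highest with overlapping intervals, and blood capillary-like cells had 265 CPM.

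**Figure D3:**
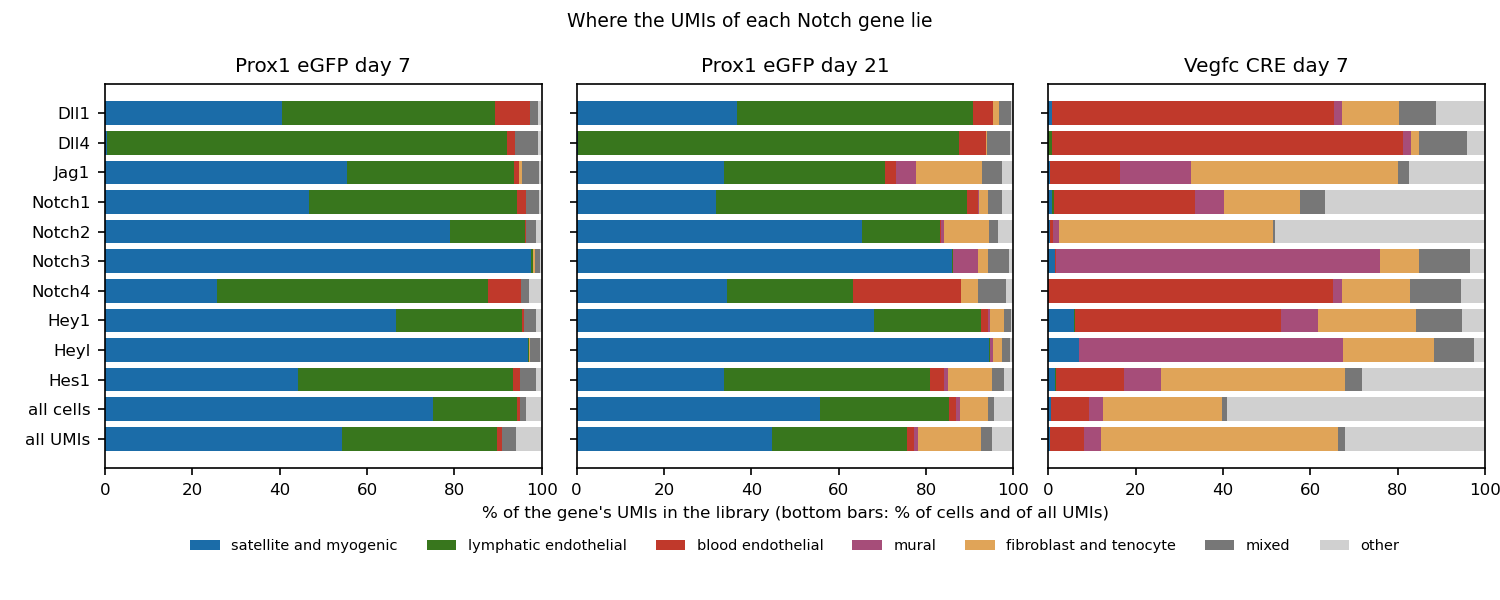
Share of each gene's UMIs by lineage in the 3 injured libraries, with the shares of cells and of all UMIs in the bottom bars. In both Prox1 eGFP libraries over 85% of Notch3 and Heyl UMIs come from myogenic cells and over 87% of Dll4 UMIs from lymphatic cells, and in Vegfc CRE 74.1% of Notch3 UMIs come from mural cells and 80.2% of Dll4 UMIs from blood endothelium.

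The lineage that held a gene's UMIs differed between libraries, as did their cell makeup. Myogenic cells held 97.6% of Notch3 and 96.8% of Heyl UMIs at day 7, when they held 54.2% of all UMIs (75.2% of cells), and 85.9% and 94.5% at day 21, when they held 44.8% (55.7% of cells). In Vegfc CRE, mural-like cells held 3.91% of all UMIs, 74.1% of Notch3 and 60.5% of Heyl UMIs. Blood endothelial-like cells held 7.85% of all UMIs there, and 80.2% of Dll4, 65.2% of Notch4, 64.4% of Dll1 and 47.2% of Hey1 UMIs. Fibroblast-like and tenocyte-like cells held 47.3% of Jag1 and 49% of Notch2 UMIs, below their 54.2% of all UMIs, although they were 27.2% of cells. In all of day 0, Notch2 had 429 UMIs, Hes1 196, Notch1 174 and Jag1 68, and the other 6 genes between 2 and 23.

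Satellite-like cells at day 21 held less Jag1 and Notch3 than at day 7. Jag1 was 30.2 CPM (28.0 to 32.5) against 62.5, or 2.07-fold lower (1.89 to 2.26), and Notch3 122 against 276 CPM, or 2.26-fold lower (2.17 to 2.36). Notch1 was 1.57-fold lower. Of 9 genes with enough UMIs, 0 were at least 2-fold higher and 2 were lower, beside 4.17% and 10.7% of all genes. The other 7 of these genes differed by less than 2-fold. Dll4, at 3 and 2 UMIs, was below the minimum. A Notch3 UMI was seen in 82.4% of cells at day 7 and 52.5% at day 21, and in 41.3% and 21.5% after thinning. The median log2 ratio of the 9 was -0.25 and that of all genes -0.23, and TMM scaling (trimmed mean of M values, which aligns the bulk of genes) moved the log2 scale by -0.21. Under that scaling the log2 ratio of Jag1 was -0.83 and that of Notch3 -0.96, both under 2-fold.

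The days were held by different clusters. Of the satellite-like cells, day 7 lay mostly in cluster 1 (3351 cells) and day 21 in cluster 0 (3333 cells, with 130 of day 7), both of which carried Pax7, Myf5 and Myod1. Within cluster 0 alone, a comparison added after the data were seen, Jag1 was again lower at day 21 (log2 ratio -1.17), Notch3 stood at -0.96, and Dll1 (-1.50), Notch4 (-1.90) and Hes1 (-1.01) were also lower. Notch4 (1.60 against 0.894 CPM) and Hey1 (63 against 54.6) were higher at day 21 over all satellite-like cells but lower within cluster 0, where Hey1 stood at -0.83. The 32 satellite-like cells of Vegfc CRE also sat in cluster 0. Against day 7 of Prox1 eGFP, Notch2 was 43.8 against 126 CPM, 2.88-fold lower (1.46 to 6.68), and Hes1 1.85-fold higher, the first being the only 1 of 9 past 2-fold, beside a background of 23.2%.

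Pax7-low myogenic cells at day 21 carried almost no Notch3. The receptor measured 131 CPM (120 to 143) at day 7 and 3.27 CPM (1.06 to 7.64, 5 UMIs over 100 cells) at day 21, 40.0-fold lower (17.0 to 124). A Notch3 UMI was seen in 70.9% and 4.0% of these cells, and in 23.5% and 0.601% after thinning. The targets Hey1 and Heyl were lower too. Hey1 was 48.0 CPM at day 7 and 10.5 at day 21, 4.59-fold lower (2.75 to 8.19), and Heyl 104 and 27.5 CPM, 3.77-fold lower (2.74 to 5.32). Jag1 was 33.9 and 10.5 CPM, 3.24-fold lower (1.92 to 5.83), and Hes1 1.83-fold lower. Dll1 was 1.55-fold higher at day 21 (1.20 to 1.99). Notch1 was 89.4 CPM at day 7 and 60.2 at day 21, and Notch2 78.4 and 80.5. Notch4, at 0.514 and 1.96 CPM, and Dll4, at 1 and 0 UMIs, were below the minimum. Of 8 genes with enough UMIs, 0 were at least 2-fold higher and 4 lower, beside 5.14% and 26.1% of all genes, with a median log2 ratio of -1.28 beside -0.39.

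The same cluster differed between days in its own markers. Myog was 1613 CPM at day 7 and 5124 at day 21, Mymk, which encodes a membrane protein of myoblast fusion, 196 and 792, and Pax7 324 and 29.5. Whether this has a part in the Notch differences was not tested. Set against satellite-like cells of the same library, Pax7-low cells at day 7 had 1 gene higher (Dll1) and 1 lower (Notch3, 2.11-fold) of 9, beside a background of 22.9%. At day 21 they had 1 higher (Dll1) and 4 lower of 9, beside 30.8%. The lower genes were Notch3 (37.3-fold, 16.0 to 115), Heyl (7.00-fold), Hey1 (6.02-fold) and Jag1 (2.88-fold). Dividing satellite-like cells, found at day 21 (66 cells), had 1 of 9 genes past 2-fold, Heyl at 81.1 CPM, 2.37-fold below the remaining satellite-like cells, beside 26.5%.

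Values are given also for other Notch pathway genes, from a list of 51, in the myogenic clusters. Of the list, 8 genes were higher and 7 lower of 46 tested in Pax7-low against satellite-like cells at day 7, beside 22.9% of all genes apart, and 8 and 8 of 45 at day 21, beside 30.8%. Hes6, a Hes relative known from neuronal and muscle differentiation, was 146 against 21.1 CPM at day 7 and 170 against 34.2 at day 21 in Pax7-low against satellite-like cells. Dtx4, a Deltex ubiquitin ligase, was 8.83-fold lower and Tle1, a Groucho co-repressor, 3.83-fold higher at day 21. Between days 21 and 7 in Pax7-low cells, 1 of 40 was higher and 12 lower, beside 5.14% and 26.1% of all genes, among them Dtx4 (13.8 against 68.6 CPM), Maml3, a co-activator of the nuclear complex (5.24 against 24.4), Numbl, which acts in receptor trafficking (5.89 against 19.0), and Furin, the protease that matures Notch receptors (24.2 against 60.1). In satellite-like cells 1 of 46 was higher and 2 were lower, beside 4.17% and 10.7%, the lower ones being Numbl (8.72 against 18.7 CPM) and Dtx1 (0.648 against 1.47).

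Satellite-like and lymphatic endothelial-like cells, the main populations of the Prox1 eGFP libraries, expressed different sets of Notch genes. At day 7, 3 of 10 genes were at least 2-fold higher in satellite-like cells (Heyl 336-fold, Notch3 296-fold, Notch2 3.12-fold) and 3 were lower (Dll4, Dll1 3.12-fold, Hes1 2.10-fold). At day 21, 3 were higher and 4 lower, with Notch1 added at 2.76-fold lower. The background between these lineages was 43% and 43.7% of all genes, so such counts alone do not set the 10 genes apart. Of the other pathway genes, 6 were higher and 11 lower of 46 at day 7, and 5 and 12 of 46 at day 21. Dtx4 was 155 against 0.621 CPM and Bhlhe41 43.7 against 0.155, whereas Lfng, a glycosyltransferase that tunes receptors for Delta-like ligands, was 0.536 against 61.4, Dtx1 1.47 against 131 and Adam10, the protease of the first activating cut, 49.2 against 394.

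**Figure D4:**
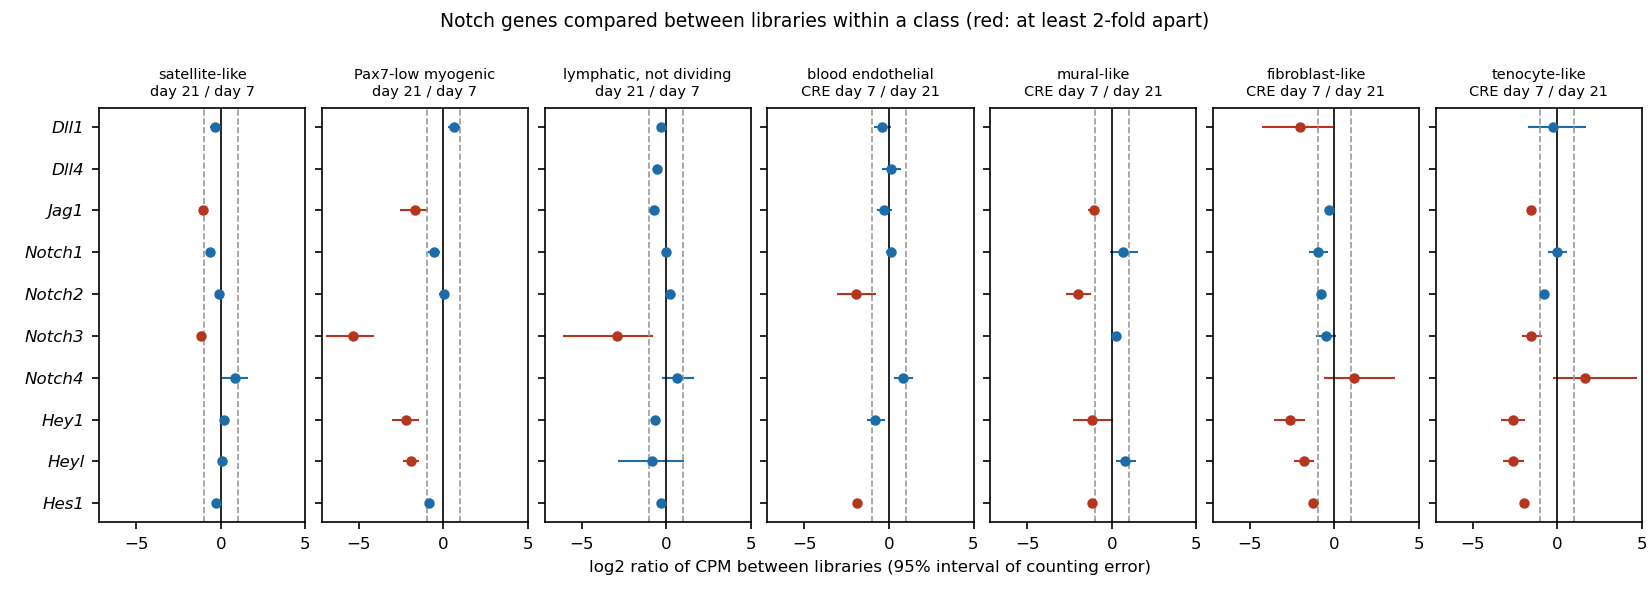
Log2 ratio of each gene between libraries within 7 classes with 95% intervals of counting error, in red where at least 2-fold apart (dashed lines at -1 and 1). Genes with under 10 UMIs over both sums and bounds against 0 UMIs are not drawn. Pax7-low myogenic, mural, fibroblast and tenocyte-like cells have 4 or more red points each. Lymphatic cells outside the dividing subcluster have 1, Notch3, at 0.932 CPM at day 7 and 0.122 CPM at day 21.

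In lymphatic capillary-like cells, which express Lyve1, Hey1 was 76.0 CPM (64.6 to 88.8) at day 7 and 33.2 (28.4 to 38.5) at day 21, 2.29-fold lower (1.83 to 2.86), and it was the only 1 of 8 genes past 2-fold (0 higher and 1 lower, beside 4.22% and 5.65% of all genes). Notch1 was 210 and 174 CPM, Dll4 44.5 and 28.8, Jag1 44.0 and 38.4, and Hes1 562 and 395. Of other pathway genes 0 were higher and 2 lower of 40, among them Spen, a co-repressor that binds RBPJ (47.9 and 23.8 CPM). In Clca3a1-high cells 0 were higher and 1 of 9 lower, beside 3.36% and 6.56%, and this was Notch3 with 11 UMIs at day 7 and 0 at day 21. Jag1 there was 81.6 and 48.3 CPM, 1.69-fold lower. Day 7 cells of that class lay in subcluster 3 (498 cells) and day 21 cells in subclusters 1 (562) and 2 (505), the last led by Gdf15, Atf3 and Fos, genes of stress and immediate-early responses. Collecting-like cells had 1 of 7 genes higher at day 21 (Dll4) and 0 lower, beside 8.01% and 7.09%, and dividing lymphatic cells 2 higher (Notch3 and Heyl) and 2 lower (Notch4 and Hey1) of 10, beside 4.35% and 8.73%, all of them with intervals of the ratio that span 1.

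Capillary-like and Clca3a1-high cells of the same library had few genes past 2-fold. At day 7 this was 1 of 9, Notch3 with 1 and 11 UMIs and an interval that spans 1, beside 13.5% of all genes, and at day 21 0 of 8, beside 11.4%. Collecting-like cells, which express Cldn11 and Foxc2, had a single Dll4 UMI at day 7 (2.26 CPM) where Clca3a1-high cells had 40.9 CPM, 18.1-fold lower (3.23 to 716), and Hey1 was 3.61-fold lower, 2 of 9 genes beside 17.3%. The other genes of that pair at day 7 were Dll1 (29.4 against 35.8 CPM), Jag1 (49.8 against 81.6), Notch1 (86.0 against 133), Notch2 (22.6 against 37.4) and Hes1 (436 against 718). At day 21 Dll4 was 14.8 against 27.8 CPM and Hey1 25.1 against 34.2, both under 2-fold, and 1 of 8 genes was past 2-fold, Notch4 with 3 and 16 UMIs and an interval that spans 1, beside 15.8%. Hes6 was higher in collecting-like cells in both libraries, at 97.3 against 26.4 and 120 against 21.9 CPM. Dividing lymphatic cells had less Hey1 than capillary-like cells at both days, 9.31 against 76.0 and 4.24 against 33.2 CPM (8.16-fold and 7.83-fold), and less Dll4, 17.8 against 44.5 and 11.3 against 28.8 CPM (2.51-fold and 2.55-fold). They had 2 genes higher (Notch4 3.14-fold and Notch3 4.87-fold, the latter with an interval that spans 1) and 3 lower of 10 at day 7, the third being Notch1 (2.21-fold), beside 23.7%. At day 21 they had 1 higher (Notch3, 8 and 2 UMIs) and 3 lower of 9, the third being Dll1 (2.33-fold), beside 21.2%. Satellite markers were also found in dividing lymphatic cells, and their Notch3 and Heyl are set beside scaled satellite-like levels below. Dtx1 was 24.7 against 250 CPM at day 7 and 57.2 against 139 at day 21, in the same direction.

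Between the vessel types of Vegfc CRE, arterial-like cells (39) had 4 of 7 genes higher than capillary-like cells (139) and 0 lower, beside 9.07% and 13.8% of all genes. Jag1 was 24.1-fold higher, Hey1 3.25-fold (2.12 to 5.06), Dll4 2.63-fold (1.84 to 3.79) and Notch4 2.14-fold (1.54 to 3.0). The median log2 ratio was 1.10 for the 7 and -0.03 for all genes. Of other pathway genes 3 were higher and 2 lower of 37. Jag2, a Jagged ligand outside the 10, was 221 against 96.5 CPM, and Ccnd1 59.0 against 185. Venous-like cells (165) had 1 of 8 higher than capillary-like cells (Jag1, 39.4 CPM, 2.92-fold, 1.59 to 5.78) and 3 lower (Hey1, Dll4 4.79-fold, Notch4), beside 10.1% and 10.5%. Jag2 was again different, 32.6 against 96.5 CPM.

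A small blood subcluster stood apart because Prox1 was among its 10 leading genes although it carried the venous markers Ackr1, Vwf and Nr2f2. It is called Prox1-high blood endothelial and held 26, 35 and 11 cells of Prox1 eGFP day 7, day 21 and Vegfc CRE, with Prox1 at 1311, 206 and 56.8 CPM and Ackr1 at 491, 255 and 239 CPM. Its Dll1 was 169 CPM (135 to 209) at day 7, 52.5 (29.4 to 86.5) at day 21 and 216 (130 to 337) in Vegfc CRE. At day 7 this was above every class of at least 30 cells. The Hes1 level was 538, 685 and 205 CPM in the same order. At day 21 it had less Notch4 (1 UMI, 20.1-fold lower, 3.25 to 830) and Hey1 (1 UMI, 18.3-fold lower, 2.93 to 758) than blood capillary-like cells, and more Jag1 (2.41-fold) and Notch2 (9 UMIs against 1), in all 2 higher and 2 lower of 8 genes beside a background of 29.4%.

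Blood capillary-like cells allow a comparison between Vegfc CRE (139 cells) and Prox1 eGFP day 21 (45 cells). Hes1 was 265 and 783 CPM, 2.96-fold lower in Vegfc CRE (2.47 to 3.54), and Jag1 13.5 and 32.0 CPM, 2.37-fold lower with an interval that spans 1 (0.93 to 5.85). These were 2 of 7 genes lower and 0 higher, beside 8.12% and 10.1% of all genes. Dll1 (28.0 and 32.0 CPM), Notch1 (148 and 128) and Notch4 (70.6 and 70.4) were close. Over all blood endothelial-like cells Hes1 was 177 and 655 CPM, 3.69-fold lower (3.35 to 4.07), and Notch2 3.87-fold lower (1.67 to 8.47), 2 of 8 genes lower and 0 higher beside 9.59% and 9.17%, but the libraries differ in makeup, with 257 cells of unnamed subclusters and 165 venous-like cells in Vegfc CRE and 45 capillary-like and 35 Prox1-high cells at day 21. Fos, an immediate-early gene, was 310 against 2397 CPM in these cells, and the median log2 ratio of 17 genes known to respond to tissue dissociation, a list chosen after values were seen, was -2.07. Their part in the Hes1 difference was not tested.

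Taken over all blood endothelial-like cells, Notch4 was higher than in lymphatic cells in both Prox1 eGFP libraries, and Notch2 lower (3.06-fold and 4.12-fold). The Prox1-high cells of day 21 had 3.5 CPM of Notch4, from 1 UMI, and 31.5 CPM of Notch2, beside 1.95 and 46.8 in lymphatic cells. At day 7, when 26 of 32 blood cells were Prox1-high, 2 genes were higher and 2 lower of 9, beside 20.8%, and at day 21 1 and 1 of 8, beside 22.9%. Of other pathway genes at day 21, 4 were higher and 3 lower of 43. Mfng, a Fringe glycosyltransferase, was 51.7 against 0.489 CPM, Jag2 42.4 against 8.37 and Nrarp, a feedback inhibitor induced by Notch, 48.6 against 24.2, all higher in blood, and Dtx1 was 8.27 against 130 CPM.

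**Figure D5:**
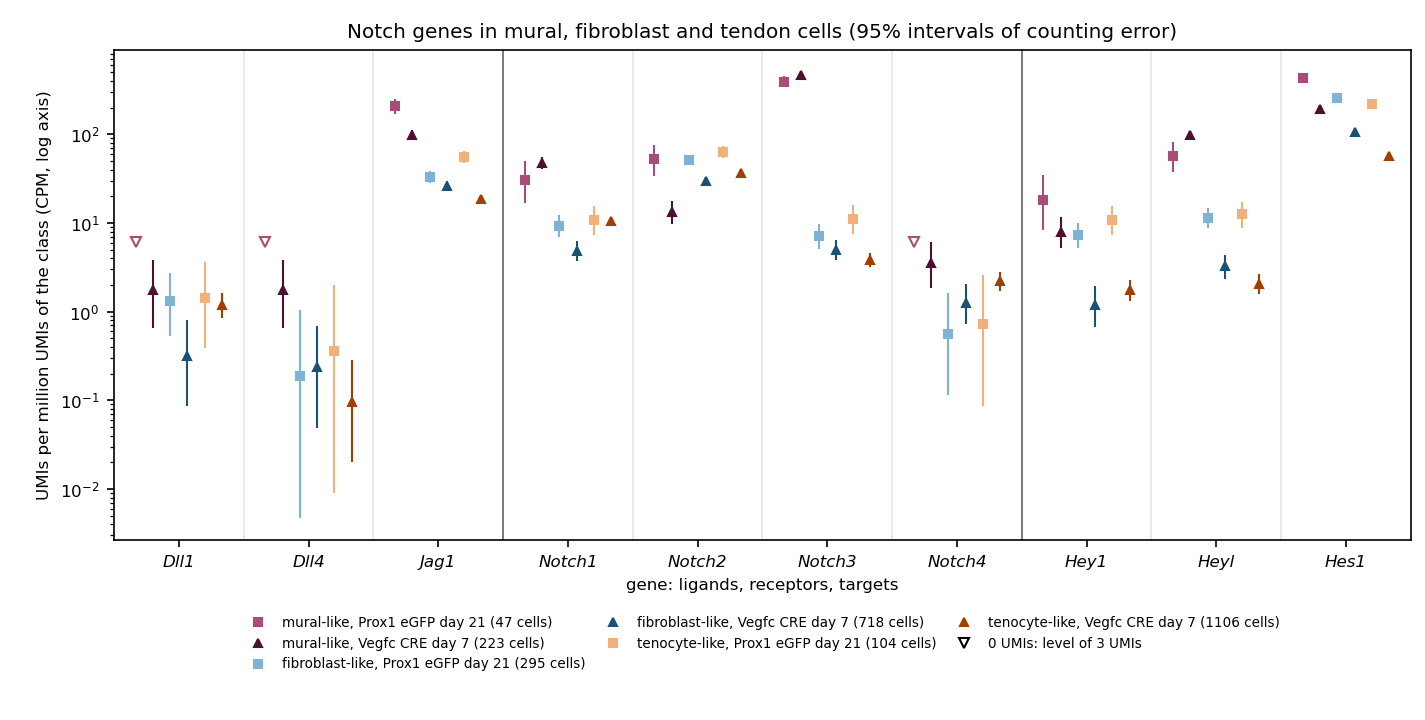
Level of each gene in mural, fibroblast and tenocyte-like cells of Prox1 eGFP day 21 and Vegfc CRE (CPM, log axis, 95% intervals of counting error, open triangles at the level of 3 UMIs where none was counted). Notch3 is between 394 and 472 CPM in mural-like cells and under 12 CPM in fibroblast-like and tenocyte-like cells of both libraries.

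Mural-like cells held Notch3 together with Jag1 and Heyl. Against fibroblast-like cells of the same library, 5 of 7 genes were higher and 0 lower at day 21, beside 16.4% and 13.8%, and 7 were higher and 1 lower of 9 in Vegfc CRE, beside 17.7% and 13.6%. Besides Notch3, the genes higher in both were Jag1 (6.29-fold and 3.76-fold), Heyl (4.94-fold and 30.2-fold), Notch1 (3.23-fold and 9.95-fold) and Hey1 (2.48-fold and 6.71-fold). Notch2 was 2.24-fold lower in Vegfc CRE. Against blood endothelial-like cells, 4 genes were higher and 5 lower of 10 in each library, beside 36.3% and 33.5% apart. Notch3, Heyl, Notch2 and Jag1 were the higher ones and Dll1, Dll4, Notch1, Notch4 and Hey1 the lower ones in both. Against satellite-like cells, Jag1 (6.86-fold and 2.59-fold) and Notch3 (3.23-fold and 2.69-fold) were higher in mural-like cells and Hey1 (3.48-fold and 11.7-fold) lower, in all 2 higher and 3 lower of 9 and of 8 genes, beside 35.8% and 32.4%.

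Of other pathway genes in Vegfc CRE, 10 were higher and 3 lower of 46 in mural-like against fibroblast-like cells, beside 17.7% and 13.6% of all genes. Nrarp was 91.7 against 0.475 CPM, Hey2, a Hey relative, 26.6 against 0.792, and Dlk1, a ligand that lacks the domain for activating receptors, 216 against 36.0. At day 21, 8 were higher and 2 lower of 42, beside 16.4% and 13.8%, and Dlk1 was 161 against 11.8 CPM.

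In Vegfc CRE the Myh11-high mural subcluster, of only 19 cells, had more Jag1 than the other mural subclusters. In the Myh11-high subcluster, whose genes encode smooth muscle contractile proteins, Jag1 was 311 CPM at day 21 (24 cells) and 334 CPM in Vegfc CRE (19 cells). In the Kcnj8-high subcluster of Vegfc CRE (113 cells), Kcnj8 being a pericyte channel gene, Jag1 was 81.3 CPM, Notch3 571 (530 to 615) and Heyl 118. Other mural-like cells of that library (91) had 78.5 CPM of Jag1, 412 of Notch3 and 73.2 of Heyl.

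Between libraries, mural-like cells of Vegfc CRE had less Jag1 (2.08-fold, 1.66 to 2.61), Notch2 (13.3 against 52.3 CPM, 3.94-fold, 2.33 to 6.52) and Hes1 (195 against 434 CPM, 2.23-fold, 1.90 to 2.60) than those of Prox1 eGFP day 21. With the cells of highest doublet score also removed, the log2 ratios of Jag1 and Hes1 were -0.81 and -0.83, under 2-fold. Hey1 was also past 2-fold (7.96 against 18.1 CPM) with an interval of 0.94 to 4.98, and under it at resolution 0.5 (log2 ratio -0.80). Heyl was 1.74-fold higher. This made 0 higher and 4 lower of 8 genes, beside 13% and 11.3% of all genes, with a median log2 ratio of -0.53 beside 0. Of other pathway genes 3 were higher and 2 lower of 41, among them Ccnd1, which encodes cyclin D1 (160 against 50.3 CPM), and Maml3 (17.1 against 52.3). The subcluster makeup differed, with the Myh11-high cells 24 of 47 at day 21 and 19 of 223 in Vegfc CRE, and Jag1 in that subcluster was 311 and 334 CPM. Fos was 421 against 1722 CPM in all mural-like cells and the 17 dissociation genes had a median log2 ratio of -1.14. Their part in the Hes1 difference was not tested.

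Fibroblast-like cells had low levels of most of the 10 genes and less of the targets in Vegfc CRE than in Prox1 eGFP day 21. Hey1 was 1.19 against 7.29 CPM, 6.14-fold lower (3.31 to 12.0), Heyl 3.25 against 11.4, 3.51-fold lower (2.33 to 5.36), and Hes1 107 against 255, 2.38-fold lower (2.21 to 2.57). Dll1 was 0.317 against 1.31 CPM, 4.13-fold lower (1.05 to 19.3), from 4 and 7 UMIs, and its log2 ratio of -2.05 became -0.53 at clustering resolution 0.5 and -0.66 at 2.0. Notch4 was 2.26-fold higher with an interval that spans 1. In all, 1 was higher and 4 lower of 9 genes, beside 6.36% and 5.71% of all genes. Tenocyte-like cells, which express Tnmd, also differed between the libraries. Hey1 was 6.19-fold lower (3.82 to 9.84), Heyl 6.09-fold (3.91 to 9.33), Hes1 3.83-fold (3.49 to 4.20), Jag1 2.95-fold (18.9 against 55.6 CPM, 2.45 to 3.52) and Notch3 2.88-fold (1.87 to 4.30). The log2 ratio of Jag1, -1.56, became -0.48 with the stricter cell filter, which is under 2-fold. Notch4 was 2.22 against 0.717 CPM with an interval that spans 1, and Dll1 1.19 against 1.43. This made 1 higher and 5 lower of 9, beside 10.3% and 9.45%. Jag1 and Notch3 were past 2-fold in tenocyte-like but not in fibroblast-like cells, and Dll1 in fibroblast-like but not in tenocyte-like cells. The difference between the classes was not tested. The median log2 ratio was -0.95 in fibroblast-like and -1.52 in tenocyte-like cells, beside -0.07 and 0 for all genes.

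Satellite markers were found in the stromal classes of day 21. A set of 5 of them stood at 1.70% of its satellite level in fibroblast-like and at 6.14% in tenocyte-like cells. Satellite-like levels scaled by those shares are 11.8 CPM of Heyl, 7.50 of Notch3 and 3.87 of Hey1 for tenocyte-like cells, where 12.5, 11.1 and 10.8 CPM were measured. For fibroblast-like cells they are 3.28 CPM of Heyl, 2.08 of Notch3 and 1.07 of Hey1, where 11.4, 7.11 and 7.29 CPM were measured. For mural-like cells the scaled Heyl is 1.82 CPM, where 56.3 CPM was measured. The part of satellite-like RNA in these levels was not tested. Vegfc CRE held 32 satellite-like cells. Fos was 650 against 1311 CPM in fibroblast-like and 310 against 749 in tenocyte-like cells of Vegfc CRE and day 21, with medians of the 17 dissociation genes at -0.67 and -0.62. Their part in the Hes1 differences was not tested.

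Bhlhe41, a transcriptional repressor, was also lower in Vegfc CRE in both stromal classes (13.9 against 40.4 CPM in fibroblast-like and 22.3 against 62.0 in tenocyte-like cells), while Dlk1 was higher in fibroblast-like cells (36.0 against 11.8). Of the other pathway genes, 2 were higher and 5 lower of 44 in fibroblast-like cells, beside 6.36% and 5.71% of all genes. In tenocyte-like cells 3 were higher and 8 lower of 49, beside 10.3% and 9.45%. In blood endothelial-like cells 1 was higher and 4 lower of 39, beside 9.17% and 9.59%. The lower ones included Aph1b, a subunit of gamma-secretase (5.88 against 26.9 CPM), and Tle4, a Groucho co-repressor (28.7 against 91.0).

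The genes whose levels were most like each member were taken over 44 class and library units of the 4 libraries, as Pearson's r of log2(CPM + 1) among 13155 candidate genes. The units share libraries and depth, so r is a description only. Dll4 was most like Robo4 (r = 0.91) and Kdr (0.89), Notch4 like Sox17 (0.89), itself a marker used to name blood endothelium, and Hey1 like Tspan12 (0.83). Notch3 and Heyl shared Map2 (0.90 and 0.92) and Lin7a (0.90 and 0.91), and Heyl was the third gene for Notch3 (0.89). Dll1 was most like Syn2 (0.85), Jag1 like Ift43 (0.84), Notch1 like Fry (0.87), Notch2 like Celf2 (0.79) and Hes1 like Plscr4 (0.90).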

How the data were processed

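The deposited matrices held raw UMI counts, not normalized. The submitters' processing notes name Cell Ranger 5.0.1 and the mm10 build for what the authors did. The 27040 gene identifiers listed in all 4 matrices were used. They held 99.0% to 99.8% of the UMIs, of which the Prox1 eGFP libraries had 6761289 (day 0), 59312181 (day 7) and 59894792 (day 21) and Vegfc CRE 92568978. Cells with at least 500 genes, 1000 UMIs and under 15% mitochondrial UMIs were kept. Scrublet in scanpy 1.11.5 (Python 3.11.15) marked 0, 1, 85 and 92 doublets, which were removed. The caller did not work on day 7 (1 cell, 0.0205%), so the cells with the highest scores were also removed as an alternative. Counts scaled to 10000 per cell gave 2000 variable genes (without the 10 Notch genes and 51 other pathway genes), 15 neighbours in 30 principal components and, at resolution 1.0, Leiden clusters. A class needed 3 markers with a fold of 2 or more over other cells and a UMI in 20% of the cluster's cells. Endothelial and mural cells were clustered again. A blood subcluster whose 10 leading genes held more lymphatic markers than markers of its own subtype was kept out of that subtype, a step set after the clusters were seen. UMIs were summed per class and library, and sums of at least 30 cells were compared. The Prox1-high blood and Myh11-high mural subclusters are described also where they held fewer cells. Intervals and the limit of 3 counts for a count of 0 cover counting error only. Whether the authors counted by strand is not given in the sources used here. The ratios, the intervals of ratios and of counts, and TMM scaling were tested on simulated Poisson counts. Filtering, clustering, naming of cells and doublet removal were not. The members and lists were chosen with earlier results of these data known. All 10 genes entered every comparison, and the text names those past 2-fold and most others. Of the 51 others, those with at least 50 UMIs, at least 2-fold apart and an interval excluding 1 could be named, at most 5 per direction. The alternatives were other resolutions, filters, doublet rules, TMM scaling, other UMI minimums, thinning and scaling to all UMIs.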

Additional observations from a re-analysis of the deposited data

Results flagged for a closer look

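A pair of genes changed order between blood and lymphatic endothelial-like cells from day 7 to day 21 of Prox1 eGFP. The log2 ratio of blood over lymphatic was -0.26 at day 7 and 0.24 at day 21 for Hes1, and 0.47 and -0.36 for Notch1. Most blood cells of day 7 were in the Prox1-high subcluster, and at day 21 the largest group was capillary-like. For Hes1 the ratio of mural-like over satellite-like cells was 0.67 at Prox1 eGFP day 21 and -1.63 in Vegfc CRE, which held 32 satellite-like cells. For Jag1 the ratio of tenocyte-like over fibroblast-like cells was 0.76 at Prox1 eGFP day 21 and -0.49 in Vegfc CRE. Each pair has opposite signs in single libraries, and the difference was not tested.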

How the results depend on the processing

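No paired analysis was possible because each group is 1 library. Of 88 values of the main counts under other settings, 79 stayed within 1.5 times the count first given. In satellite-like cells, the count of 2 genes past 2-fold between days became 1 with TMM scaling and 4 within the cluster of most day 21 cells. Neither Jag1 nor Notch3 was past 2-fold under TMM scaling, and the 1 gene was Notch4, higher at day 21. In lymphatic capillary-like cells the count of 1 became 2 at resolution 2.0 and 2 with at least 1 UMI in each library. In Clca3a1-high cells the count of 1 became 0 with at least 1 UMI in each library and 0 after thinning. There the log2 ratio of Notch3, from 11 UMIs at day 7 against 0 at day 21, changed sign to 0.23. This sign follows from the limit of 3 counts, which replaced the 0 and passed the thinned day 7 count. In mural-like cells the count of 4 became 2 at resolution 0.5. At resolution 2.0 the number of genes highest in the same lineage was 5 of 10 at day 7 and 6 of 10 at day 21. Dll1 was then highest in blood endothelial instead of myogenic cells at both days. Single ratios were recomputed between libraries for satellite-like, lymphatic capillary-like, Clca3a1-high, all blood endothelial-like, mural-like, fibroblast-like and tenocyte-like cells. Other comparisons, among them that of Pax7-low cells between days, were not rerun. Of 595 single ratios, 533 kept their size, 61 moved and 1 changed sign. Apart from that sign change of Notch3, the cause of these changes was not tested. Clca3a1-high and tenocyte-like cells gave no value at resolution 0.5. The log2 ratio of Notch3 in satellite-like cells ranged from -1.19 to -0.96, of Jag1 from -1.17 to -0.83, of Hes1 in all blood endothelial-like cells from -1.89 to -1.65 and of Hey1 in fibroblast-like cells from -2.63 to -2.13. For the comparisons described above, the TMM shift of the log2 scale ran from -0.31 (satellite-like over lymphatic cells, day 7) to 0.41 (mural-like over satellite-like cells, day 21). The shift is subtracted from a log2 ratio, so a negative shift raises the ratio and a positive shift lowers it. Single pooled libraries give no spread between animals, and levels from fewer than about 10 UMIs, such as those of Notch4 and Dll1 in stromal cells, are imprecise.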
